A study of Mus musculus with 28 samples.

Results

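Acetylation of lysine 27 of histone H3 (H3K27ac) was compared between resistant mouse lung adenocarcinoma cells carrying a short hairpin RNA against Fabp7 (Res_shFabp7) and the parental resistant cells (Res). The comparison used the H3K27ac peak lists of these groups, 3 libraries each, which are 6 of the 28 samples of the series. Overlapping peaks of the 6 lists were merged; regions with a peak in all 6 were compared by tag count and the others by presence. Changes were then separated by whether resistant cells with a control hairpin (Res_Ctrl, 3 libraries) also showed them against Res. All these groups are labelled as resistant to PD-1 blockade. The genotype of Res is given as wild type, and its label adds that the cells were treated with PD-1 inhibitors; Res_Ctrl has the genotype control and Res_shFabp7 the genotype shFabp7 knockdown, with no treatment named for either. Vector delivery, selection, passage and any such treatment therefore cannot be told apart in either comparison with Res, whereas Res_shFabp7 and Res_Ctrl differ by the hairpin as far as the labels go. The library names carry 1 hairpin name and 1 control name, so a difference between the lines cannot be told apart from one between the hairpins. Replicates are called biological, with no word on whether separate infections were made, and p-values measure the spread between these libraries. The comparison asks which acetylated regions of resistant cells change with loss of Fabp7.

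H3K27ac marks active promoters and enhancers; it is written by the acetyltransferases p300 and CBP and removed by histone deacetylases, and its level at a promoter generally rises and falls with the activity of the gene. The acetyl group comes from acetyl-CoA, a product of glucose and fatty acid breakdown. Fabp7 encodes a fatty acid binding protein that carries long-chain and polyunsaturated fatty acids inside the cell and is best known from glia of the brain. Ferroptosis, named in the title of the series, is a death caused by peroxidation of polyunsaturated lipids; cystine import by Slc7a11 and the glutathione peroxidase Gpx4 hold it back.

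The Res_shFabp7 lists held 23131, 27107 and 28934 peaks, the Res lists 22252, 19811 and 19907 and the Res_Ctrl lists 21097, 19965 and 22982. Every Res_shFabp7 list was longer than every Res list (26391 ± 2967 against 20657 ± 1382, SD, n = 3; two-sided exact permutation p = 0.1, the smallest that 3 against 3 allow). Tags in peaks, the depth these lists show, were 5.10, 7.17 and 10.5 M (M, 1e6) in Res_shFabp7, 7.35, 5.33 and 5.08 M in Res and 4.65, 3.70 and 4.65 M in Res_Ctrl. The first 2 groups overlapped (exact permutation p = 0.6). Fabp7 itself (chr10:57784923-57788450, mm10) had 0 peaks within 1 kb in any of the 9 lists, so acetylation of the gene does not check the knockdown. The nearest Res peaks lay 5688, 5703 and 5790 bases away, with 128, 97 and 64 tags. Res_shFabp7 replicates 2 and 3 had a peak 5864 and 5709 bases away, with 74 and 61 tags. The nearest peak lay 251938 bases away in Res_shFabp7 replicate 1 and 251939 to 251997 bases away in the Res_Ctrl lists. Defining markers of other cell types were mostly without a promoter peak: of 15 immune markers 1 to 2 had one in each of the 9 libraries (Cd14, with or without Spi1), and Ptprc had none. Of 13 fibroblast and endothelial markers, Res libraries had 3, 2 and 1 with a peak inside the 1 kb window (675, 436 and 367 tags, from Col1a1, Col1a2 and Dcn; the Col1a2 peak of replicate 3 lay outside that window) and every Res_shFabp7 and Res_Ctrl library had Col1a1 alone (123, 156 and 233 tags, and 100, 65 and 72 tags). Of 15 epithelial markers 8 to 10 had a peak in each library.

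Acetylation changed widely between Res_shFabp7 and Res, and of the changed tag counts that could be tested in the control-hairpin cells most were also called there, though fewer of the falls per called base. The 6 lists merged into 31880 regions, of which 14840 (46.5%) had a peak in all 6 libraries. By edgeR's quasi-likelihood test with Benjamini-Hochberg adjustment at 0.05, 2921 regions rose (19.7% of those tested) and 3075 fell (20.7%). In 2858 of the risen and 3035 of the fallen regions the 3 and 3 libraries did not overlap. A call from 3 against 3 libraries itself favours such separation, and the share over all tested regions is not given, so this is no separate support. The median change was 0.64 for risen and -0.68 for fallen regions (log2, Res_shFabp7 minus Res), and 667 rose and 760 fell by 2-fold or more. Promoters, here the 1 kb on either side of a gene start, held 47.1% of the risen, 43.8% of the fallen and 65.6% of the uncalled regions. A called peak tends to be longer where it is higher. Per called base the median absolute change of the 5996 changed regions was 0.28 in place of 0.65, and 3723 of them kept their call, while 42 were called the other way.

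The same mark in Res_Ctrl was measured with the same Res libraries as reference, so the comparisons share them. In a joint fit of the 9 libraries over the 13524 regions present in all 9, Res_Ctrl minus Res had 40.2% of regions called. Of the 2866 risen regions that could be tested there, 2013 (70.2%) also rose in Res_Ctrl. Of the 2515 fallen ones, 2009 (79.9%) also fell in Res_Ctrl. Per called base 1332 of 2107 risen and 1200 of 2649 fallen regions were also called in Res_Ctrl, and with 5 Mb window medians removed 1507 of 2059 and 1108 of 2109; these totals include regions with no Res_Ctrl test. A further 560 fallen regions lacked a peak in at least 1 Res_Ctrl library and had no such test, 103 of them with no peak in any. The direct test of Res_shFabp7 against Res_Ctrl called 353 regions (2.61%), 96 higher (0.71%) and 257 lower (1.9%). Only 27 risen and 82 fallen regions combined that call with none in Res_Ctrl minus Res, 822 and 422 passed neither Res_Ctrl test, and 4 and 2 moved the other way in Res_Ctrl minus Res. On counts simulated with the same fixed spread at every region, this direct test found 42% of 1.5-fold changes and 100% of 2-fold changes. That spread was not estimated from the libraries, so these shares need not hold for real regions. The absence of a call does not show that Res_shFabp7 and Res_Ctrl were alike. With the replicate number as a block the direct test called 297 higher and 679 lower. It called 21 and 59 without Res_shFabp7 replicate 3, 24 and 67 without Res_shFabp7 replicate 2, 120 lower without Res_shFabp7 replicate 1, 34 and 63 without Res_Ctrl replicate 2, and 86 lower without Res_Ctrl replicate 3.

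**Figure D1:**
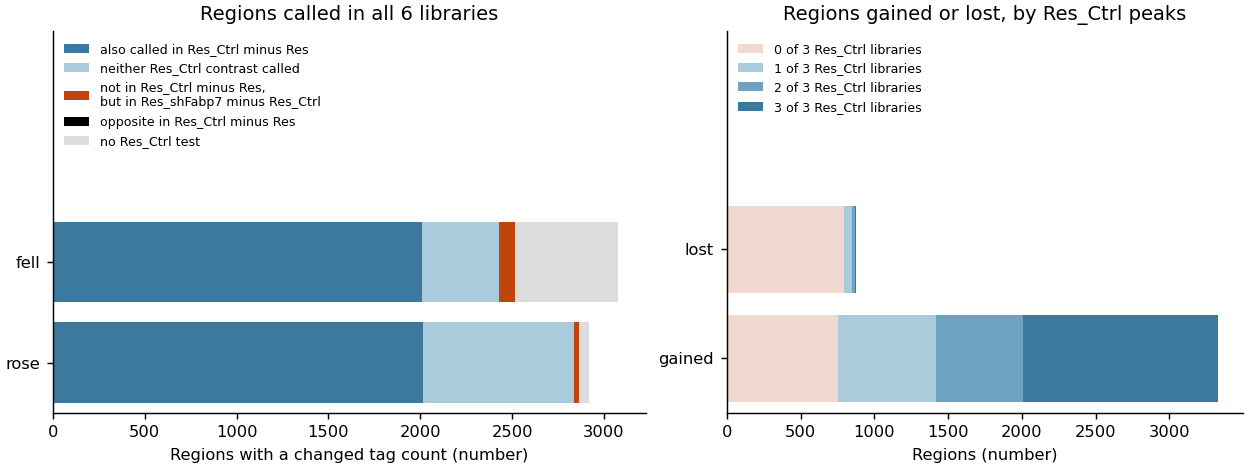
Left, regions with a changed H3K27ac tag count in Res_shFabp7 minus Res (number, x axis), split by the result in Res_Ctrl; right, regions gained or lost by presence, split by how many of 3 Res_Ctrl libraries had a peak. Of the risen regions 2013 and of the fallen regions 2009 were also called in Res_Ctrl minus Res, and 792 of 876 lost regions had no peak in any Res_Ctrl library.

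The changes were spread unevenly over the chromosomes. On chromosome 11, 602 of 1275 regions fell (47.2%) and the median region lay at -0.33; chromosome 1 lay at -0.31, chromosome 17 at -0.26 and chromosome 15 at -0.22. Chromosome 10 lay at 0.28, chromosome 7 at 0.27 and chromosome 2 at 0.23, beside 0.03 over all tested regions. The median in Res_Ctrl minus Res was -0.39 on chromosome 11, -0.40 on chromosome 1, 0.22 on chromosome 10 and 0.25 on chromosome 7, with H3K9ac at -0.32, -0.30, 0.20 and 0.23 for Res_shFabp7 minus Res. Within chromosome 4, windows of 5 Mb stood lower still: all 10 tested regions between 50 and 55 Mb fell (median -1.44; -1.23 in Res_Ctrl minus Res), as did 19 of 22 between 80 and 85 Mb (-1.08; -1.06). Genes within such windows share their shift with their neighbours, and whether copy number or chromatin moved with it was not tested. After the median of each 5 Mb window was removed, 3461 of the 5996 changed regions kept their call and 11 were called the other way.

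Chromosomes X and 8 differed between Res_shFabp7 and Res_Ctrl. The X regions of the Res_shFabp7 libraries had median levels of 0.21, 0.36 and 0.44 relative to the Res mean (log2), those of Res_Ctrl 0.03, -0.09 and 0.07, and those of Res 0.11, -0.01 and -0.10. Every Res_shFabp7 library was above every library of the other groups. Within each group the X levels followed the order of the tags in peaks. These were 5.10, 7.17 and 10.5 M in Res_shFabp7, 7.35, 5.33 and 5.08 M in Res and 4.646, 3.70 and 4.652 M in Res_Ctrl. Whether depth bears on the X levels was not tested. H3K9ac on X was likewise at 0.28 in Res_shFabp7 minus Res and at 0.05 in Res_Ctrl minus Res. On chromosome 8 the Res_Ctrl libraries stood at 0.29, 0.29 and 0.23 and the Res_shFabp7 libraries at 0.14, 0.04 and 0.04. The direct test called 72 of 874 regions lower on chromosome 8. It called 38 of 808 lower on chromosome 4 and 36 of 841 on chromosome 3, beside 257 of 13524 over all (1.9%). With chromosome medians removed the direct test called 55 higher and 111 lower, a setting chosen after the data were seen.

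**Figure D2:**
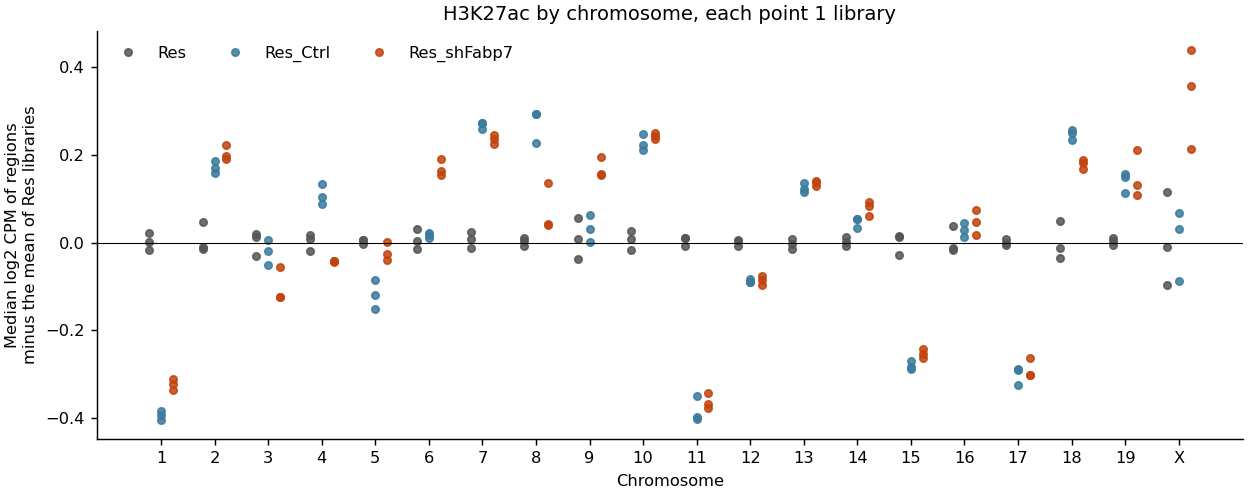
Median H3K27ac level of the regions of each chromosome in each library, relative to the mean of the Res libraries (log2 CPM, y axis), with 1 point per library. Both hairpin groups lie below 0 on chromosomes 1, 11, 15 and 17, whereas on X the Res_shFabp7 libraries lie at 0.21 to 0.44 and the Res_Ctrl libraries at -0.09 to 0.07.

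Promoters that changed against both Res and Res_Ctrl were few. Of 9549 genes with a tested promoter region, 1509 rose (15.8%) and 1494 fell (15.6%) against Res; in the direct test 45 of 9098 genes were higher (0.495%) and 79 lower (0.868%). The named genes below passed both tests, did not overlap between Res_shFabp7 and Res, and had no call in Res_Ctrl minus Res. Levels are given as CPM, tags per M tags in the tested regions after TMM scaling, in the fit of 9 libraries unless stated.

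The largest of these falls was at Ddah1 (chr3:145757905-145759844), which breaks down the methylarginines that inhibit nitric oxide synthase. Its level was 16.3, 11 and 10.1 CPM in Res_shFabp7, 32.4, 24.8 and 30.6 in Res_Ctrl and 38.3, 38.1 and 33.2 in Res. All Res_shFabp7 libraries lay below all others. The region fell by 1.52 ± 0.20 against Res (log2 ± SE, edgeR adjusted p = 0.000325), and its difference from Res_Ctrl was -1.25 ± 0.20 (edgeR adjusted p = 0.00949). H3K9ac there changed by -1.35 against Res and -1.27 against Res_Ctrl. The call against Res_Ctrl was lost without Res_shFabp7 replicate 2 or 3.

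Serinc2 (chr4:130272761-130275899), of a family named for incorporating serine into membrane lipids, had 20.8, 20.1 and 16.0 CPM in Res_shFabp7, 39.3, 44.1 and 41.2 in Res_Ctrl and 52.3, 43.6 and 43.6 in Res. The groups of hairpin cells did not overlap. Its change was -1.25 ± 0.16 against Res and -1.14 ± 0.15 against Res_Ctrl (edgeR adjusted p = 0.000278 and 0.00477), and H3K9ac changed by -1.47 and -1.17. This call held with each library left out in turn.

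Mt2 (chr8:94171141-94174039) encodes a metallothionein, a small cysteine-rich protein that binds zinc and copper and is induced by metals, glucocorticoids and oxidative stress; it was in the list of ferroptosis suppressors. Its promoter held 13.9, 16.9 and 17.1 CPM in Res_shFabp7, 42.7, 34.0 and 34.3 in Res_Ctrl and 33.3, 27.3 and 43.1 in Res. All 3 Res_shFabp7 values were below the other 6, and Res_Ctrl overlapped Res. The change was -1.05 ± 0.20 against Res and -1.20 ± 0.19 against Res_Ctrl (edgeR adjusted p = 0.00276 and 0.00956), with H3K9ac at -0.94 and -0.85. It was called with each library left out. The neighbouring metallothionein gene Mt1 had its own region, at 75.2, 65.4 and 61.9 CPM in Res_shFabp7, 84.2, 72.7 and 78.7 in Res_Ctrl and 77.9, 76.6 and 77.7 in Res. Mt1 was not called in H3K27ac (-0.15 ± 0.10, edgeR adjusted p = 0.273), while its H3K9ac fell (-0.40 ± 0.07, edgeR adjusted p = 0.00044).

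The promoters of Mt2 (chr8:94172368-94172667) and Mt1 (chr8:94178839-94179138) are shown because these neighbours with like control elements differed in H3K27ac. Each sequence runs from 250 bases before to 50 after the gene start on the plus strand (RefSeq, GRCm38.p6). Capitals mark the metal response element core, searched as TGCACNC and TGCGCNC on both strands.
Mt2: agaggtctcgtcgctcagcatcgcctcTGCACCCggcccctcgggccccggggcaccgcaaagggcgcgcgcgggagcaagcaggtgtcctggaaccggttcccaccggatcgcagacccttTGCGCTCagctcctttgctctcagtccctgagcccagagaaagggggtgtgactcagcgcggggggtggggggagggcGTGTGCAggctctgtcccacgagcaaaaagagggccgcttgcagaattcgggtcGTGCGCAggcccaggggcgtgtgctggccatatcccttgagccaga
Mt1: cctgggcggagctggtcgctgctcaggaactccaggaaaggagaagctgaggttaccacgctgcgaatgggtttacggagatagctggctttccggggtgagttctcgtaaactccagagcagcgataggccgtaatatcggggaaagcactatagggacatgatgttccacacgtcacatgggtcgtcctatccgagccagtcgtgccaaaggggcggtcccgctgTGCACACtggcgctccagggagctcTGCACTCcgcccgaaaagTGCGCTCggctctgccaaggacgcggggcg
Mt2 held 4 matches and Mt1 3. Of all 17492 genes with a promoter of this length, 14.3% held the first form and 21.6% the second.

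Tnfaip2 (chr12:111441788-111445712), induced by tumour necrosis factor, had 35.8, 31.7 and 34.9 CPM in Res_shFabp7, 56.0, 57.8 and 49.9 in Res_Ctrl and 51.3, 52.8 and 63.1 in Res. It changed by -0.65 ± 0.13 against Res and -0.68 ± 0.13 against Res_Ctrl (edgeR adjusted p = 0.00326 and 0.0215), with H3K9ac at -0.59. The hairpin groups did not overlap, but the call against Res_Ctrl was lost without Res_shFabp7 replicate 2 or 3 or Res_Ctrl replicate 2, and with 5 Mb window medians removed (adjusted p = 0.086).

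The other named falls were less stable. Crct1, a gene of the cornified envelope cluster, had 19.9, 11.9 and 13.0 CPM against 28.7, 33.0 and 21.9 in Res_Ctrl and 34.4, 36.8 and 35.5 in Res, and changed by -0.91 ± 0.21 against Res_Ctrl (edgeR adjusted p = 0.047). Its call was lost without Res_shFabp7 replicate 2 or 3, any 1 Res library or Res_Ctrl replicate 1 or 2, and with window medians removed (adjusted p = 0.11). Camsap3, which caps the minus ends of microtubules in epithelial cells, changed by -1.04 against Res and -0.77 against Res_Ctrl, but its H3K9ac did not pass (-0.09). Camsap3 lost its call against Res_Ctrl without Res_Ctrl replicate 2 or 3 and with window medians removed (adjusted p = 0.076). At Gm30599, a predicted gene, the region of the 6 lists had 26.1, 41.7 and 31.0 CPM in Res_shFabp7 and 62.2, 76.1 and 74.3 in Res, a change of -1.10 ± 0.17. The wider Gm30599 region of the 9 lists changed by -0.70 against Res_Ctrl, and per called base that call was lost (edgeR adjusted p = 0.064).

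Ska1 on chromosome 18, a subunit of the complex that ties kinetochores to microtubules, was the 1 risen promoter named. Of the 27 risen regions of this class 14 lay at promoters, and Ska1 was named because its call also held per called base, which the rule asks for. It had 60.4, 67.5 and 69.3 CPM in Res_shFabp7, 27.7, 31.8 and 36.7 in Res_Ctrl and 40.4, 19.2 and 31.3 in Res, with Res_shFabp7 above all other libraries. The change was 1.16 ± 0.22 against Res and 1.04 ± 0.22 against Res_Ctrl (edgeR adjusted p = 0.00251 and 0.0283), with H3K9ac at 0.93 against Res. The call against Res_Ctrl was lost without any 1 of the 3 Res_shFabp7 or 3 Res_Ctrl libraries.

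**Figure D3:**
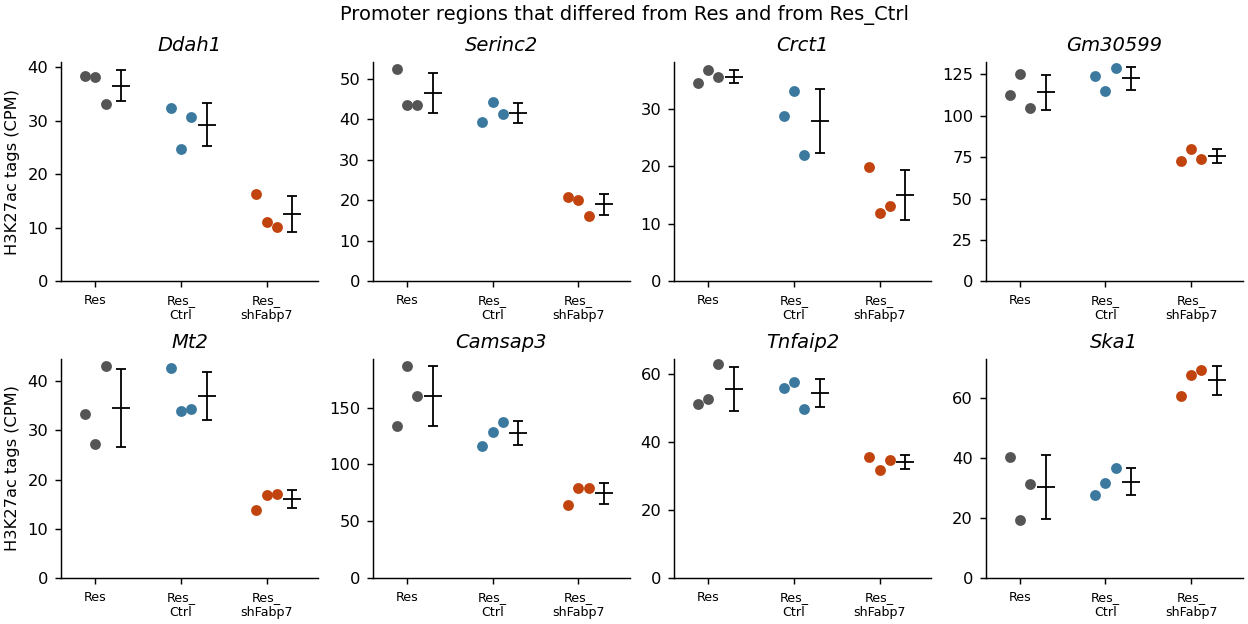
H3K27ac at promoter regions that were called against both Res and Res_Ctrl (CPM, y axis), with 1 point per library and the mean ± SD of 3 libraries. For Ddah1, Serinc2 and Mt2 the 3 Res_shFabp7 points lie below all Res_Ctrl and Res points, and for Ska1 they lie above them.

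Some promoters changed against Res in both hairpin groups and by different amounts. Ccn1, a matricellular target of YAP picked out after its values were seen, had 141, 133 and 127 CPM in Res_shFabp7, 207, 215 and 203 in Res_Ctrl and 264, 261 and 237 in Res. The 3 groups did not overlap, and the Ccn1 difference between hairpins was -0.64 ± 0.08 (edgeR adjusted p = 0.00357), with H3K9ac at -0.62. Klf4, a transcription factor of epithelial differentiation, had 90.6, 81.6 and 75.5, 115, 106 and 112, and 173, 192 and 193 CPM in the same order; the Klf4 difference between hairpins was -0.43 (edgeR adjusted p = 0.0356). Klf4 lies between 55 and 60 Mb of chromosome 4; with window medians removed that adjusted p was 0.52, and its change against Res was -0.27 and not called. Without 1 of Res_shFabp7 replicate 2 or 3, Res replicate 2 or any Res_Ctrl replicate, the Klf4 difference between hairpins was not called either. Sparc, a secreted collagen-binding protein, went the other way: 60.4, 55.2 and 61.7 CPM in Res_shFabp7, 30.7, 38.4 and 34.8 in Res_Ctrl and 174, 178 and 183 in Res. Sparc fell by 1.53 against Res in Res_shFabp7 and changed by -2.37 in Res_Ctrl, and its difference between hairpins was 0.78 ± 0.11 (edgeR adjusted p = 0.00485), though -0.007 per called base.

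Of the 27 risen and 82 fallen regions of the same class, 14 and 23 lay at promoters and the others were distal. Only those that also kept their call against Res per called base were ranked. The lowest distal region of these, picked out after the values were seen, lay 10857 bases from Accsl (chr2:93880014-93883475). It had 14.1, 9.98 and 21.1 CPM in Res_shFabp7, 41.0, 38.4 and 42.5 in Res_Ctrl and 54.2, 49.5 and 44.3 in Res, a change of -1.63 against Res and -1.41 ± 0.22 against Res_Ctrl (edgeR adjusted p = 0.00949). The highest lay 48078 bases from Pde4d, a cAMP phosphodiesterase (chr13:108602143-108606099), with 63.1, 68.2 and 71.2 CPM in Res_shFabp7, 24.8, 29.5 and 46.5 in Res_Ctrl and 22.1, 23.3 and 35.3 in Res. It changed by 1.39 ± 0.18 against Res and 1.01 ± 0.22 against Res_Ctrl (edgeR adjusted p = 0.0362), and this last call was lost with window medians removed (adjusted p = 0.0503). Both had Res_shFabp7 apart from all 6 other libraries.

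The largest promoter changes against Res were shared with Res_Ctrl. Pdxk, the kinase that makes the active form of vitamin B6 (chr10:78456836-78466176), had 95.6, 122 and 113 CPM in Res_shFabp7, 130, 116 and 71.3 in Res_Ctrl and 17.0, 15.4 and 13.2 in Res. It rose by 2.9 ± 0.14 (edgeR adjusted p = 3.32e-06), with 2.78 in Res_Ctrl minus Res, but by 0.32 per called base. Cd53, a tetraspanin known from leukocytes, rose by 2.50 ± 0.17 (184, 218 and 200 CPM against 29.4, 33.7 and 48.5 in Res; 2.37 in Res_Ctrl). The drug-metabolising enzyme gene Cyp3a13 rose by 2.44, and the region shared by the zinc importer gene Slc39a4 and Vps28 by 2.38. In all of these both hairpin groups lay above every Res library.

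Nrp1, a co-receptor for semaphorins and VEGF (chr8:128355654-128362214), was the lowest: 13.7, 10.7 and 14.3 CPM in Res_shFabp7, 44.7, 17.5 and 25.6 in Res_Ctrl and 149, 134 and 111 in Res. It changed by -3.29 ± 0.15 (edgeR adjusted p = 2.97e-06), with -2.15 in Res_Ctrl and -2.55 in H3K9ac. The Nrp1 difference between hairpins (-1.20 ± 0.28, edgeR adjusted p = 0.0463) was not called with window medians removed (adjusted p = 0.14) or without any 1 Res_shFabp7 library, Res replicate 1 or 2, or Res_Ctrl replicate 1 or 3. Clca3a1 fell to 25.1, 29.8 and 59.5 CPM from 231, 272 and 248 in Res (24.3, 23.5 and 33.3 in Res_Ctrl). The G1 cyclin gene Ccnd2 had 25.5, 20.1 and 17.6 CPM, 16.0, 16.2 and 14.5 in Res_Ctrl and 75.1, 76.4 and 94.6 in Res; it fell by 1.92 ± 0.16. Arhgef10l and Gm12447 changed by -2.32 and -2.31, with -1.76 and -2.07 in Res_Ctrl. For each of these the Res libraries stood above both hairpin groups.

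**Figure D4:**
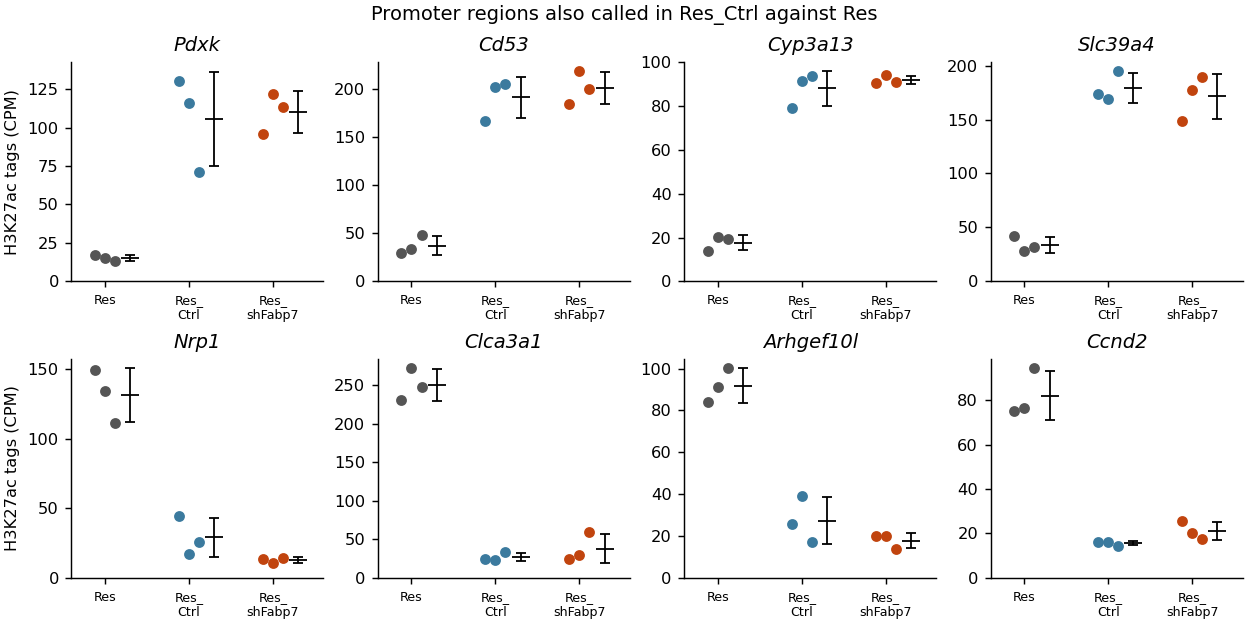
H3K27ac at promoter regions with the same call in Res_shFabp7 minus Res and in Res_Ctrl minus Res (CPM, y axis), with 1 point per library and the mean ± SD of 3 libraries. In the upper row both hairpin groups lie above the Res libraries and in the lower row both lie below them.

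Genes of the integrated stress response and the unfolded protein response fell together. When amino acids run short or proteins misfold in the endoplasmic reticulum, eIF2alpha is phosphorylated and the transcription factor ATF4 is made; it switches on amino acid import and synthesis genes and the cystine importer Slc7a11. Of 22 list members with a tested promoter, 16 fell and 1 rose, and the median change was -0.46; of all 9549 genes 15.6% fell and 15.8% rose, with a median of 0.06. Of the same list 11 of 20 members tested in 9 libraries fell in Res_Ctrl minus Res (20.1% of all genes fell and 13% rose there) and 0 passed the direct test of Res_shFabp7 against Res_Ctrl in either direction, in which 79 of 9098 genes were lower. H3K9ac in Res_shFabp7 minus Res fell at 17 and rose at 1, where 26.5% of all tested H3K9ac regions fell and 24% rose. Per called base 16 fell and 1 rose, and with window medians removed 13 and 1.

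Trib3, a pseudokinase induced by ATF4, had 20.8, 19.0 and 21.3 CPM in Res_shFabp7 and 52.2, 57.2 and 80.9 in Res (fit of 6 libraries). It fell by 1.63 ± 0.18 (edgeR adjusted p = 0.000108); only 2 of 3 Res_Ctrl lists had its peak, and its H3K9ac changed by -1.56 in Res_shFabp7 and -1.75 in Res_Ctrl. Chac1, which degrades glutathione, had 30.7, 23 and 22.9 CPM against 65.2, 61.1 and 69.0 and fell by 1.36 ± 0.14, again with a peak in 2 of 3 Res_Ctrl lists. The groups did not overlap for either gene.

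Slc7a11, the light chain of the cystine-glutamate exchanger, had 41.4, 34.4 and 47.3 CPM in Res_shFabp7, 50.8, 38.4 and 38.0 in Res_Ctrl and 79.4, 96.5 and 125 in Res. The hairpin groups overlapped each other and lay below Res; the change was -1.22 ± 0.18 in Res_shFabp7 and -1.23 ± 0.19 in Res_Ctrl (edgeR adjusted p = 0.000597 and 0.000283). Asns, which makes asparagine, had 24.4, 17.8 and 15.3 CPM in Res_shFabp7, 12.3, 15.9 and 17.7 in Res_Ctrl and 39.6, 32.8 and 45.7 in Res, and changed by -1.0 and -1.37. Atf3, a stress-induced transcription factor, had 28.6, 44.7 and 35.1 CPM in Res_shFabp7, 53.3, 39.4 and 47.8 in Res_Ctrl and 75.3, 52.8 and 82.3 in Res.

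The promoters of these 5 genes are shown because they were the furthest down of the list and each holds an ATF4-C/EBP element, in capitals, searched as TGATGNAA on both strands. Each runs from 250 bases before to 50 after the gene start, in the direction of the gene (RefSeq, GRCm38.p6): Trib3 chr2:152344011-152344310, Slc7a11 chr3:50443564-50443863, Asns chr6:7693160-7693459 and Atf3 chr1:191183284-191183583 on the minus strand and Chac1 chr2:119350992-119351291 on the plus strand.
Trib3: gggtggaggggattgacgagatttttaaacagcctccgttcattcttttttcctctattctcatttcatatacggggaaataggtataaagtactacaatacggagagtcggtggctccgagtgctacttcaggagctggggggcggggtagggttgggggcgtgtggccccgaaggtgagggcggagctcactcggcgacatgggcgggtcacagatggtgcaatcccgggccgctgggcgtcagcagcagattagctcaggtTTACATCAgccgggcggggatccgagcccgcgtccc
Chac1: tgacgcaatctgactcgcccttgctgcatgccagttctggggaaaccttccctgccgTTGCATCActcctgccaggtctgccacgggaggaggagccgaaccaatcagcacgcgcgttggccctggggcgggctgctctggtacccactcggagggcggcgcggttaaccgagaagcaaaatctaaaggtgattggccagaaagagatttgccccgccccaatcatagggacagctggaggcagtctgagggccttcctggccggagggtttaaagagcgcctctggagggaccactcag
Slc7a11: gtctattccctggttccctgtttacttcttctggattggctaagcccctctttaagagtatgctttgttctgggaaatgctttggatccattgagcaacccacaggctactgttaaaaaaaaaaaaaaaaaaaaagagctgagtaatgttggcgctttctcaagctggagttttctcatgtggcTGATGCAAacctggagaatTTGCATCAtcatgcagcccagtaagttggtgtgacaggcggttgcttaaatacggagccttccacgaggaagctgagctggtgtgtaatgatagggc
Asns: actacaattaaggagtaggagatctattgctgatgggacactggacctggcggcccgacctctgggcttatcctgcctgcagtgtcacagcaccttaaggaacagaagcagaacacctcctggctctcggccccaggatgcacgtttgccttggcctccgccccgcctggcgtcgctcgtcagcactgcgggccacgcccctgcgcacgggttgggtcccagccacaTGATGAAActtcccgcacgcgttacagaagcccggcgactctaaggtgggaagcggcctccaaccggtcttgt
Atf3: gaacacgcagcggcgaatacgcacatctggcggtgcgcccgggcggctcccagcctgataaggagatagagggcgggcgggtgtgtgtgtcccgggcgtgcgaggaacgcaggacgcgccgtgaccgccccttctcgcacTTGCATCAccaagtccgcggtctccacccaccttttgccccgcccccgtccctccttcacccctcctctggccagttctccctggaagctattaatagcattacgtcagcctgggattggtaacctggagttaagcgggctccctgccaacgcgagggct
Slc7a11 held 2 matches and the others 1 each. Of the 15 fallen list members with a promoter entry, 7 held the element (these 5, Herpud1 and Vldlr), or 46.7%. Of all 21 tested members with an entry, whatever their call, 33.3% held it. The share was 4.13% of all 17492 genes, 2.58% of 7738 genes with a tested region and 4.21% of 1164 genes that fell. The list gathers genes of the response that ATF4 serves, so its excess over all genes is no evidence on the falls. A match of these letters is a description and not a measured site. The other members that fell were Vldlr (-0.77), Sesn2 (-0.72), Atf6 (-0.61), Atf5 (-0.56), Xbp1 (-0.54), Cebpb, Ern1 and Ddit3 (-0.46 each), Herpud1 (-0.44), Phgdh and Psat1 (-0.40 each). Atf4 itself was not called (-0.13), nor was the chaperone gene Hspa5 (-0.26); the disulphide isomerase gene Pdia4 rose by 0.87.

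**Figure D5:**
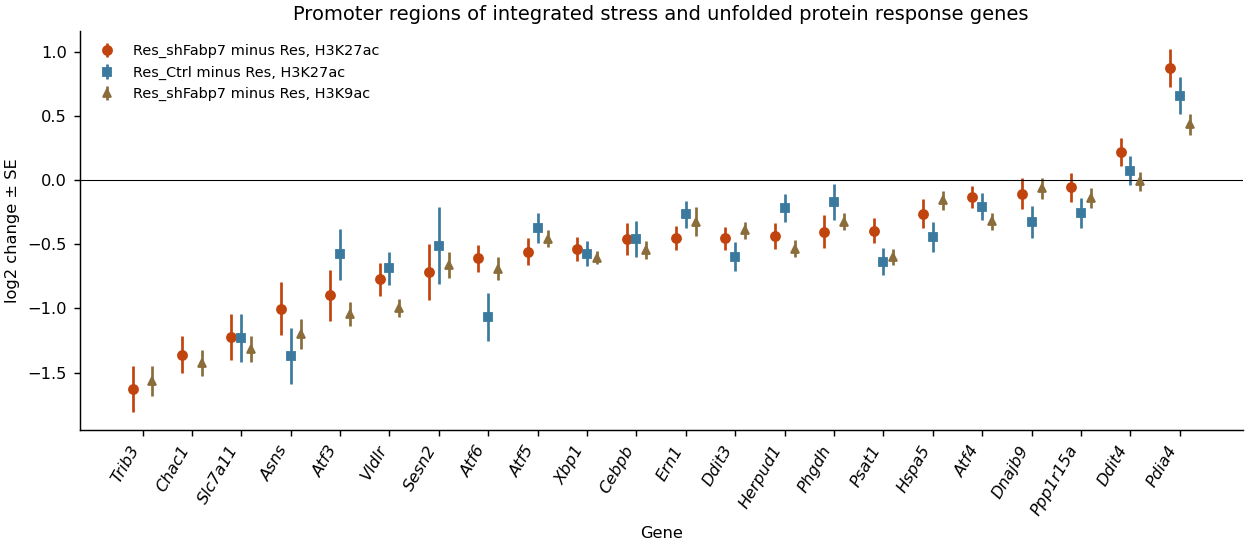
Change (log2 ± SE, y axis) of the promoter regions of 22 integrated stress and unfolded protein response genes: H3K27ac in Res_shFabp7 minus Res and in Res_Ctrl minus Res, and H3K9ac in Res_shFabp7 minus Res; Trib3 and Chac1 have no Res_Ctrl value. Most points lie below 0 for all 3, and Pdia4 lies above it.

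Ferroptosis suppressors changed in both directions. Of 27 tested members 5 rose and 7 fell (median 0.13), beside 15.8% risen and 15.6% fallen of all genes. The fallen ones were Slc7a11 and its heavy chain Slc3a2 (-0.58), Mt2, Gch1 (-0.98; the first enzyme of tetrahydrobiopterin synthesis), the haem oxygenase gene Hmox1 (-0.92), Sqstm1 (-0.83; an adaptor that frees Nrf2) and the peroxiredoxin gene Prdx6 (-0.48). The risen ones were Spr (0.66), Mboat1 (0.56), Gss (0.54), Ftl1 (0.49) and Gsr (0.47), which make or recycle biopterin and glutathione, remodel phospholipids or store iron. Gpx4 was not called (0.16). Of the list, 8 of 26 fell and 3 rose in Res_Ctrl minus Res, and Mt2 was the 1 member called between the hairpins. Of 21 drivers, 5 fell (Chac1; the reductase genes Cyb5r1, -1.14, and Steap3, -0.82; the glutamine carrier gene Slc1a5, -0.75; Trp53, -0.29) and the transferrin receptor gene Tfrc rose (0.63).

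Fatty acid binding and uptake genes showed no common direction that held per called base. Of 11 tested members 6 rose and 3 fell, beside 15.8% risen and 15.6% fallen of all genes, but per called base 1 rose and 4 fell. Rxra, the partner of the PPAR nuclear receptors, rose by 1.33 ± 0.12 (1.11 in Res_Ctrl; 0.07 per called base), and Ppard by 0.87 (-0.30 per called base). Acsl1 (0.61), Slc27a4 (0.49) and Acsl5 (0.43) were also among the risen. The fatty acid transporter gene Slc27a1 fell by 1.45 ± 0.21, Vldlr by 0.77 and the acyl-CoA binding protein gene Dbi by 0.36. Fabp5, the binding protein related to Fabp7, had a promoter peak in 2 of 3 Res_shFabp7, 3 of 3 Res and 1 of 3 Res_Ctrl lists and was not tested. None of the 11 was called between the hairpins.

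Other lipid lists moved little or in both directions, beside 15.8% risen and 15.6% fallen of all genes. Plin2, the coat protein of lipid droplets, had 167, 209 and 191 CPM in Res_shFabp7, 177, 205 and 209 in Res_Ctrl and 351, 370 and 406 in Res; it changed by -0.94 ± 0.10 and -0.93 ± 0.10, and by -0.43 with window medians removed. The hairpin groups overlapped and lay below Res. Among the other lipid droplet genes Bscl2 fell (-0.37) and Fitm2 (1.19) and Hilpda (0.58, -0.04 per called base) rose. Of 14 fatty acid synthesis genes 4 rose (Me1, 0.65; Slc25a1, 0.55; Elovl1, 0.50; Fads2, 0.39) and 3 fell (Srebf1, Fads3 and Fasn, -0.36 to -0.34). Of 19 oxidation genes 2 rose (Cpt1a, 0.48; Acadm, 0.45) and 3 fell (Acadvl, -0.69; Decr1, -0.66; Eci1, -0.35).

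Of 17 tested cholesterol synthesis genes 6 rose, 0 fell and 11 were not called (median 0.32; 15.8% of all genes rose). In Res_Ctrl minus Res 5 rose and 1 fell. The risen genes were Hmgcs1 (1.37 ± 0.18), Tm7sf2 (1.14), Stard4 (1.07; a sterol carrier), Dhcr7 (0.57), Msmo1 (0.56) and Idi1 (0.49). Hmgcs1, which makes the precursor of mevalonate, had 43.6, 32.4 and 43.5 CPM in Res_shFabp7, 33.6, 20.01 and 25.9 in Res_Ctrl and 16.4, 17.4 and 14.1 in Res. Every Hmgcs1 value of the hairpin groups was above Res. Per called base only 1 of the 6 kept its call (Tm7sf2), and Hmgcs1 changed by 0.06.

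Glycolysis and hypoxia genes rose more often than they fell, at 11 against 2 of 21 (median 0.43; 6 against 1 with window medians removed), beside 15.8% risen and 15.6% fallen of all genes. Among them were the pyruvate dehydrogenase kinase gene Pdk1 (0.87 ± 0.13), the glucose transporter gene Slc2a1 (0.69), Tpi1 (0.62), Pgk1 (0.60) and Gapdh (0.55). In Res_Ctrl minus Res 10 rose and 1 fell (13% and 20.1% of all genes). Vegfa fell by 0.56, and the carbonic anhydrase gene Car9, a marker of hypoxia, fell by 0.62. Car9 had 19.7, 20.1 and 20.6 CPM in Res_shFabp7, 35.1, 31.4 and 29.0 in Res_Ctrl and 35.4, 30.8 and 30.4 in Res, and its difference from Res_Ctrl was -0.66 ± 0.15 (edgeR adjusted p = 0.036; H3K9ac -0.62). Car9 shares its region with Arhgef39 and was picked out after its values were seen. Its change against Res was -0.20 and not called with window medians removed. Its difference between hairpins was not called with window medians removed (edgeR adjusted p = 0.234), or without any 1 Res_shFabp7 or Res_Ctrl library or Res replicate 2.

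Among lineage genes, of 9 tested epithelial genes 6 rose and none fell (median 0.42; 2 per called base), beside 15.8% risen and 15.6% fallen of all genes, and the same numbers were called in Res_Ctrl minus Res: Krt7 rose by 0.95, Pkp3 by 1.00 in a region shared with Sigirr, and Tjp3 by 0.57 in one shared with Pip5k1c. Of 14 mesenchymal genes 4 fell, among them Fn1 (-1.42 ± 0.18), Sparc, Snai2 (-0.74) and Zeb2 (-0.69), and 4 rose, among them Itga5 (0.81), Itgb1 (0.29) and the region shared by Col4a1 and Col4a2 (0.82, -0.10 per called base). Tgfb2, a growth factor of epithelial-mesenchymal transition, had 12.5, 10.5 and 8.38 CPM in Res_shFabp7 against 51.4, 53.2 and 59.9 in Res and no peak in any Res_Ctrl list; it fell by 2.41 ± 0.18. Col1a1 fell by 1.36 (-1.56 in Res_Ctrl). Of 9 lung and foregut lineage genes 4 rose, among them the hepatocyte and foregut factor genes Hnf4a (1.21), Foxa2 (0.87; 0.20 and not called with window medians removed) and Gata6 (0.61), and 3 fell, with Sox9, a progenitor factor, at -1.63 ± 0.13 (-1.47 in Res_Ctrl).

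Signalling lists were mixed, and several counts lay near the 15.8% risen and 15.6% fallen of all genes. Of 22 Hippo, TGF-beta and Wnt genes 4 rose and 7 fell, with the Wnt genes Tcf7 (-1.03) and Axin2 (-0.98) and the YAP targets Ccn1 and Amotl2 (-0.87 each) among the fallen and Smad3 (0.96, -0.04 per called base) among the risen. Of 26 AP-1 and immediate early genes 8 rose (Fosb, 1.4 ± 0.13, with 1.77 in Res_Ctrl; Spry4, 0.94) and 3 fell (Klf4; Myc, -0.69; Fosl2, -0.60). Of 15 p53 targets 4 rose (Perp, 0.74) and 5 fell (Btg2, -1.08; Gadd45a, -0.68), and all 5 also fell in Res_Ctrl. Of 19 clock genes 5 rose and 4 fell, the latter led by Rorb (-1.44) and Per2 (-0.67). Of 19 NF-kB and cytokine genes 5 rose (Nectin2, a ligand of the receptor TIGIT, 0.94 ± 0.09) and 6 fell. The acetylation machinery had 3 of 24 risen (Kat8, 0.49; Crebbp and Sirt6, 0.40 each) and 5 fallen (among them Kat2b, -0.43, which was 0.14 per called base; Hdac5, -0.42; Kat7, -0.41; Brd2, -0.36). Class I antigen presentation had 1 of 10 risen (Pdia3, 0.35) and 1 fallen (H2-D1, -0.36), interferon response 3 of 14 risen (Jak2, 0.59) and 2 fallen (Ddx58, -1.44), cell cycle 5 of 26 risen and 3 fallen, and housekeeping genes 4 of 19 risen and 3 fallen. Hprt, on X, was at 0.84 ± 0.15 in Res_shFabp7 minus Res and 0.07 in Res_Ctrl minus Res.

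Some calls of list members against Res were not stable. Left-out libraries ended the calls of H2-D1 and Pdia3 (any 1 Res_shFabp7 library, Res replicate 2 or 3), Acadvl (Res_shFabp7 replicate 2 or 3, Res replicate 1 or 2) and Elovl1 (Res_shFabp7 replicate 1 or 3, Res replicate 2 or 3). They also ended those of Hdac5 (Res_shFabp7 replicate 2 or 3, Res replicate 1 or 3), Kat2b (Res_shFabp7 replicate 2 or 3, Res replicate 3) and Kat8 (Res_shFabp7 replicate 2, Res replicate 2). Per called base the calls of Acadvl, Cpt1a, Elovl1, Fitm2, H2-D1, Hprt, Me1, Pdia3, Pkp3, Slc2a1, Spry4, Stard4 and Tjp3 were lost as well. With window medians removed, Acadvl, Decr1, Elovl1, H2-D1, Hdac5, Hilpda, Kat2b, Kat8, Pdia3, Per2, Perp, Pgk1, Steap3 and Tjp3 were no longer called.

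By presence, 3329 regions were gained (a peak in 3 of 3 Res_shFabp7 and 0 of 3 Res lists), 19.5% of the 17040 regions not found in all 6, and 876 were lost (5.14%). The longer Res_shFabp7 lists bear on this ratio: with 19811 peaks taken from each list 1995 were gained and 1712 lost, and without Res_shFabp7 replicate 1, the shortest of its group, 6018 were gained. Of the lost regions 792 (90.4%) had no peak in any Res_Ctrl list, and 767 (87.6%) had none in any of 3 lists of cells sensitive to PD-1 blockade (Sen). The share of all regions without a peak in those lists was not computed, so these counts lack a baseline. Lost regions were weak (median score 139, beside 630 for tested regions). Tags in peaks were also fewer in Res_Ctrl (3.70 to 4.65 M) than in Res (5.08 to 7.35 M). Of the gained regions 1319 (39.6%) had a peak in all 3 Res_Ctrl lists and 756 in none, and 758 had a peak in all 3 Sen lists and 984 in none. Chromosome X held 55 gained regions, 9.58% of its 574 regions, beside 10.4% over all chromosomes. Of these, 21 had no Res_Ctrl peak (3.66% of X regions, beside 2.37% over all) and 5 had a peak in all 3. Gained regions lay at promoters in 8.47% and lost ones in 13.5%. The promoter share of all regions not found in all 6 lists is not given, so these shares lack a baseline too.

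Among the 118 lost regions at promoters, those named by score or list membership included developmental regulators. No count of such genes was made. The Res lists held 622, 377 and 358 tags at Gli3, a transcription factor of hedgehog signalling, 408, 311 and 285 at the homeobox gene Meis1, 389, 324 and 255 at the mesenchymal factor gene Twist2 and 469, 317 and 212 at the receptor gene Fgfr1. At the extracellular superoxide dismutase gene Sod3 they held 562, 438 and 359, and at Col1a2 145, 107 and 89. None of these had a peak in any Res_shFabp7, Res_Ctrl or Sen list. Klk10, a secreted protease, had 167, 176 and 176 tags in Res, 50, 66 and 57 in Res_Ctrl and no peak in Res_shFabp7. Its Res_Ctrl peaks had scores of 51.9, 85.4 and 83.7, near the lowest score in the lists (50), against 196, 236 and 235 in Res. Res_Ctrl thus also held fewer tags there than Res, and the region counts as lost only in Res_shFabp7 by a small margin.

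Gained promoters with a peak in every Res_Ctrl list included Myrf, a membrane-bound transcription factor (1127, 1553 and 2228 tags in Res_shFabp7; 987, 714 and 967 in Res_Ctrl), Prdm16 (612, 827 and 1234), the keratin gene Krt23 (730, 1044 and 1410) and Apoc2, the activator of lipoprotein lipase (552, 721 and 1137). Csf1, the macrophage growth factor, had 555, 593 and 824 tags, and 664, 529 and 604 in Res_Ctrl; an H3K9ac peak lay there in all 3 Res lists. Those without any Res_Ctrl peak included Il2rb (159, 207 and 408 tags) and Fam83f (114, 179 and 300), both with a peak in all 3 Sen lists, and, on X, Gemin8 (91, 157 and 199) and Nsdhl of cholesterol synthesis (57, 44 and 98). Sox2, a stem cell and airway factor, had 145, 116 and 309 tags and a peak in 1 Res_Ctrl list. Cidec, a lipid droplet protein, had 111, 189 and 237 tags and a peak in 2 Res_Ctrl lists. Each of these had no peak in any Res list.

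H3K9ac, measured in separate libraries of the same groups, moved with H3K27ac. Of 11396 H3K9ac regions tested in Res_shFabp7 minus Res 50.5% were called, and of 10251 in Res_Ctrl minus Res 48.4% were called, 23.8% risen and 24.7% fallen. Among H3K27ac regions with an H3K9ac test, 1315 of 1670 risen ones also rose in H3K9ac (78.7%) and 10 fell, while 1664 of 1981 fallen ones also fell (84.0%) and 10 rose. Of 6784 uncalled H3K27ac regions 16.6% rose and 16.8% fell in H3K9ac. The direct H3K9ac test of Res_shFabp7 against Res_Ctrl called 605 of 10251 regions (5.9%), 185 higher (1.8%) and 420 lower (4.1%). Of the gained H3K27ac regions 685 had an H3K9ac peak in all 3 Res_shFabp7 lists and 17 in all 3 Res lists; of the lost ones 9 and 121.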

How the data were processed

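Chromatin immunoprecipitation and sequencing measured H3K27ac and H3K9ac in cultured cells, fixed in 1% formaldehyde for 10 minutes and read as single 50-base reads, per the labels' protocols. Per the submitters' processing notes, reads were aligned with Bowtie 1.1.2 to mm10 and peaks called with MACS 1.4.2. The authors deposited 1 peak list per library; the control used by MACS and the treatment of duplicates are not given in the sources used here, and the 4 inputs were not analysed here. The deposited tag count of a peak is a raw number of reads. The deposited score is -10 times the log10 of the peak's p-value (lowest 50). The deposited fold ratio of each peak is the authors' own and was used only to describe lists.

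Peaks overlapping by 1 base or more were merged, and tags summed per region and library. Regions with a peak in all 6 libraries (or 9, in the fit of 3 groups) were tested with edgeR 4.0.16 in R 4.3.3 by quasi-likelihood, with TMM scaling and Benjamini-Hochberg adjustment at 0.05 over all regions. A minimum mean of 50 tags removed no region. A region missing from a library has no deposited count, so such regions were compared by presence only, with no p-value. Changes are log2 with the SE of the fit. The test recovered 66% of simulated 1.5-fold and 100% of 2-fold changes in the 6 libraries, with 17 false calls among 14840 regions. These simulations gave every region the same fixed spread, not estimated from the libraries, so they do not measure power or false calls in the real data. Each gene took the region with most tags within 1 kb of its start (RefSeq, GRCm38.p6; 17492 of 21887 genes) or, where no start was listed, of either end; the table gives no exons. Same-numbered Res_shFabp7 and Res libraries had correlated deviations in H3K27ac (0.32, 0.12 and 0.12). Replicates 2 and 3 correlated across numbers as well (0.14 and 0.12), and in H3K9ac the same-numbered values were -0.02, -0.02 and -0.12. The main tests were therefore unpaired, and the replicate number entered only as the block of an alternative fit. Whether the numbers stand for pairs is not given in the labels.

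The members, the 24 gene lists and the rule for named genes were chosen with earlier results of these data known. The rule took the largest promoter changes per class, up to 3 members per list, and gained or lost promoters by score. For the largest changes it asked that the 3 and 3 libraries not overlap and that the call against Res hold per called base. Other members are given to account for a list. Alternatives were the replicate block, tags per called base, other scalings, thresholds and overlaps, removal of chromosome or window medians, and each library left out. A few list members that passed the test are not reported here by name.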

Additional observations from a re-analysis of the deposited data

Results flagged for a closer look

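At 13 named promoters Res_shFabp7 and Res_Ctrl differed by the direct test of the 2 groups in H3K27ac (edgeR quasi-likelihood, Benjamini-Hochberg adjusted p below 0.05). Lower in Res_shFabp7 were Ddah1 (-1.25, log2), Mt2 (-1.20), Nrp1 (-1.20), Serinc2 (-1.14), Crct1 (-0.91), Camsap3 (-0.77), Gm30599 (-0.70), Tnfaip2 (-0.68), Car9 (-0.66), Ccn1 (-0.64) and Klf4 (-0.43). Higher were Ska1 (1.04) and Sparc (0.78). The rule for named genes used this difference for all of them but Tnfaip2, Nrp1, Klf4, Sparc, Car9 and Ccn1, and the last 2 were picked out after their values were seen.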

How the results depend on the processing

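Depth per library is not in the lists, and a region without a peak has no count. All counts of regions below are H3K27ac. The direct test of Res_shFabp7 against Res_Ctrl (96 higher, 257 lower) gave 297 and 679 with the replicate block, 164 and 516 per called base, and, by settings chosen after seeing the data, 257 and 486 with the DESeq2 Wald test, 55 and 111 with chromosome medians removed and 59 and 101 with window medians removed; the cause was not tested. Leaving out 1 library gave 21 to 120 higher and 59 to 278 lower. Changed regions also called in Res_Ctrl were 1332 of 2107 risen and 1200 of 2649 fallen per called base and 1108 of 2109 fallen with window medians removed; leaving out 1 library gave 1606 to 2034 and 1482 to 1959. Gained and lost regions were 1852 and 407 at a score of 100 or more and 1995 and 1712 with equal peak numbers; leaving out 1 library gave 3378 to 6018 and 886 to 1187, since fewer lists must share a peak. Without 1 library, Res_shFabp7 minus Res gave 2059 to 2878 risen and 2371 to 3013 fallen regions (H3K9ac, 2151 to 2743 and 2619 to 2927), and the difference in mean peak number was 4462 to 7364. Per called base the sign turned at Col4a2 (-0.10), Hilpda (-0.043), Kat2b (0.14), Ppard (-0.30), Smad3 (-0.041) and Sparc between hairpins (-0.007). Of 96 called results for named genes, 71 kept direction and call per called base, 70 with window medians removed and 79 with chromosome medians removed. Genes named for the largest changes had to keep their call per called base, so the 71 was partly set by the rule. Over all changed regions 3723 of 5996 kept it. The replicate block, which pairs libraries by number, ended none of the 96 calls; between hairpins it added calls at Fitm2 (0.52, adjusted p = 0.0442), Fosb (-0.42, 0.0475) and Hprt (0.73, 0.0363), which were not called without it.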
